A study of Homo sapiens with 12 samples.

Results

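Expression of 43 genes of redox defence, glutathione metabolism and ferroptosis was followed through the development of lapatinib tolerance and resistance in BT474 cells. The genes were taken by name from these pathways and not by a rule on their values, but with earlier results of these data known. All 43 were among the 26485 genes of the expression table, and 37 of them reached a normalised read count of at least 1 in at least 3 libraries and were tested. The other 6 (GPX3, GSTP1, AKR1C1, AKR1C2, AKR1C3 and AKR1B10) stayed under that level.

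BT474 is an established human breast cancer cell line that overexpresses HER2, and lapatinib is a kinase inhibitor of HER2 and EGFR. Poly(A) RNA was sequenced in 4 states with 3 libraries each. These were the Control at day 0, drug-tolerant persisters (DTP) at day 9, drug-tolerant expanding persisters (DTEP) at month 6 and long-term resistant cells (LR, labelled Resistant) at month 9. All 12 libraries were labelled wild type. DTP, DTEP and LR were cultures under 1 µM lapatinib renewed every 3 days. The treatment field of the Control libraries also names lapatinib, while their titles give Control and day 0. The labels name BT474 for every library, and an untreated culture of matching age was not analysed here. Between the early states (Control and DTP) and the late ones (DTEP and LR), 48 of all genes went from a mean of at least 10 normalised read counts in both early states to 0 reads in each LR library. Another 14 had 0 reads in the 6 early libraries and a mean of at least 10 in both late states. The identity and clonality of the late cultures were not tested, nor was their part in any value that compares late with early states.

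Cells hold reactive oxygen species in check with the thiols glutathione and thioredoxin, both kept reduced at the expense of NADPH. The transcription factor NRF2 (NFE2L2), held low by its adaptor KEAP1, drives many of the genes involved. Ferroptosis is an iron-dependent death from lipid peroxides, which GPX4 removes with glutathione made from imported cystine, and which the CoQ reductase encoded by AIFM2 (FSP1) counters without glutathione. Persister cells in culture have been described as sensitive to loss of GPX4.

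NRF2 acts at antioxidant response elements. The core letters TGACNNNGC were searched on both strands of RefSeq promoter windows (GRCh38.p14, 250 bases before to 50 after each start). They occurred in 13.3% of 35116 windows and, counting any window of a gene, in 16.1% of 27305 genes. Among the members, 34 had a window and 9 (26.5%) held the letters, namely AIFM2, GCLM, GPX2, GSTP1, KEAP1, ME1, MGST1, PGD and TXNRD1. A further 9 members had no window and were not searched. The 150 bases before the start are shown for 5 of these that are described in detail, read 5′ to 3′ on the strand of the gene. Matches that lie wholly within them are in capitals. Not marked are a TXNRD1 match at base -8, which runs past the start, and a TXNRD1 match at -102 of another window. An ME1 match at base 12 after the start is also not shown.
AIFM2, chr10:70132826-70132975, minus strand: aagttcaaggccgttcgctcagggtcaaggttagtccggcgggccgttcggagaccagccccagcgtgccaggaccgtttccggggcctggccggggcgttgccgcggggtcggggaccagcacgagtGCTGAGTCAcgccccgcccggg
GCLM, chr1:93909431-93909580, minus strand: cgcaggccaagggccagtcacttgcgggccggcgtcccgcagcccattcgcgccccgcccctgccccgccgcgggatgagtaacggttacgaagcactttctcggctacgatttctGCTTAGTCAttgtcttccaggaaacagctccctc
KEAP1, chr19:10502772-10502921, minus strand: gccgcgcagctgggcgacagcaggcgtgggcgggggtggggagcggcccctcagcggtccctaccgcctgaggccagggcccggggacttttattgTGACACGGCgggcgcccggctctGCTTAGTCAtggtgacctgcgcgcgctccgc
ME1, chr6:83431052-83431201, minus strand: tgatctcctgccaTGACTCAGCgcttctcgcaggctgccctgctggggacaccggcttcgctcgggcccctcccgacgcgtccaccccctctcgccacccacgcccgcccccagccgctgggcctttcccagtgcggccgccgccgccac
TXNRD1, chr12:104215629-104215778, plus strand: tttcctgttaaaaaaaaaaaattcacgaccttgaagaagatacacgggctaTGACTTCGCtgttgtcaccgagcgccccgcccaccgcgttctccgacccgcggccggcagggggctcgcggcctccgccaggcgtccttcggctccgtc
A match describes letters in the window and not binding. By the values below, TXNRD1, KEAP1 and AIFM2 were higher and ME1 was lower in DTP than in Control, while GCLM was higher in DTEP than in either. Of the other genes with a match, PGD (limma adjusted p 0.995) and MGST1 (0.668) did not pass in DTP against Control. GPX2 was higher there and GSTP1 was not tested. The ME1 and GPX2 calls were not made by edgeR or DESeq2.

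Library depth ranged from 16383363 to 25030482 reads, so 1 read was worth 0.0412 to 0.0576 normalised read counts and 3 reads, taken as the floor, 0.124 to 0.173. These limits cover counting error only. All 8 luminal and HER2 markers were present in every library. ERBB2 itself lay between 6356 and 6833 in Control, 7917 and 9136 in DTP, 1244 and 2103 in DTEP, and 1556 and 1897 in LR. Of 6 markers of leukocytes, endothelium and fibroblasts, 5 stayed at or below 0.217, and COL1A1 ranged from 48.1 to 130.4. The summed level of 7 proliferation markers lay between 1633 and 1639 at day 0, was 151 to 157 in persisters, and lay between 1675 and 2497 in DTEP and between 533 and 1234 in LR. Their part in the results was not tested. In these bulk samples, fewer cells of a kind and less RNA per cell cannot be told apart.

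The DTEP libraries differed in their likeness to LR. DTEP replicate 1 correlated with the LR libraries at Pearson r between 0.9126 and 0.933 across genes (genes are not independent replicates). DTEP replicate 2 did so between 0.9398 and 0.9563. DTEP replicate 3 lay closest to LR, between 0.9705 and 0.9861, and correlated with the other DTEP libraries between 0.9339 and 0.962. For 34 of the 37 tested members (91.9%), its value was nearer to the LR mean than to the mean of DTEP replicates 1 and 2, against 73.3% of all 13794 genes tested. It was the lowest of the DTEP libraries for 31 members (83.8%), against 47.7% of all genes. Results that rest on it are therefore given with and without it for many members, though not for every one. As this library was singled out from these same values, fits without it show dependence on this library and give no independent support.

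A gene was taken as higher or lower when the adjusted p of limma across all tested genes was below 0.05, and as changed over 4-fold when its absolute log2 change also exceeded 2. Log2 changes are on the log2(value + 1) scale, which understates changes of low genes, while fold values are ratios of mean normalised read counts. Errors are SD (n = 3) for levels and standard errors (SE) for log2 changes.

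**Figure D1:**
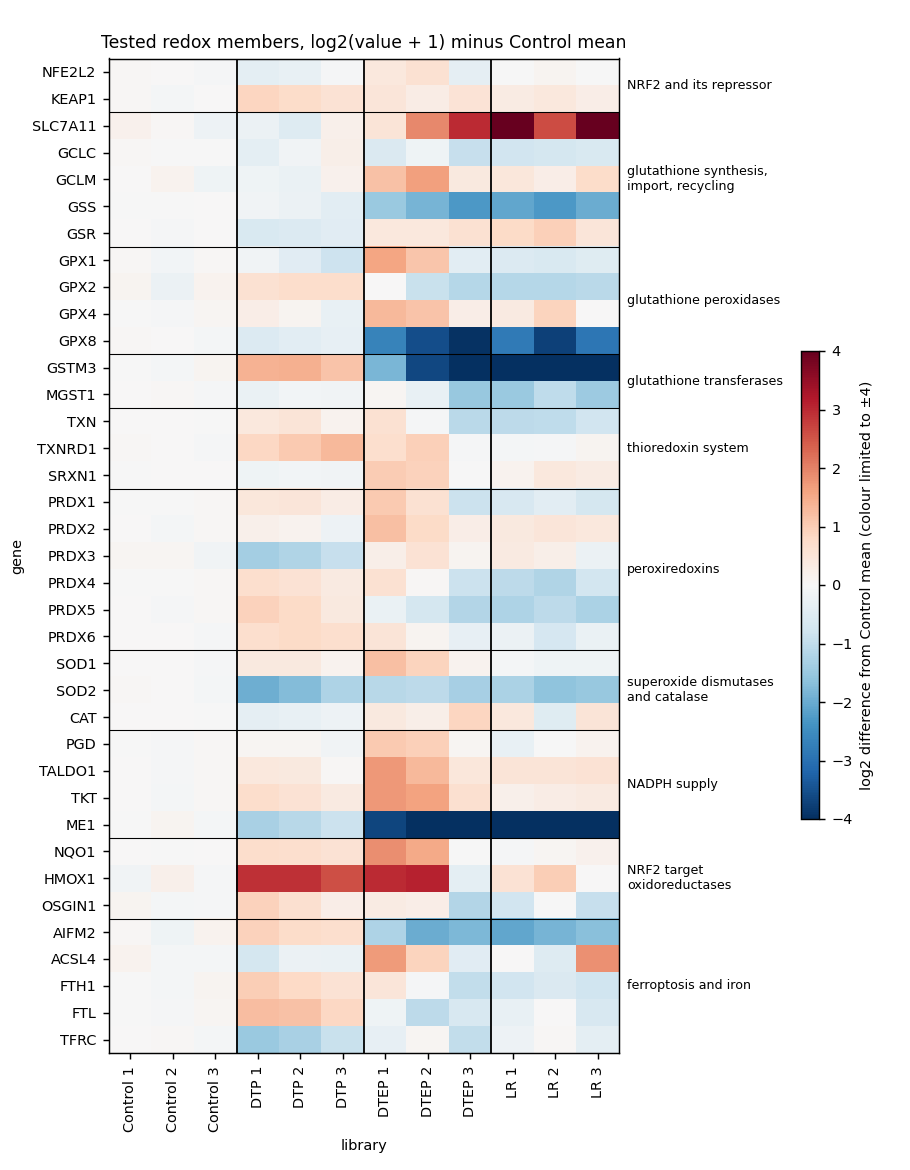
Heat map of the 37 tested genes (rows, grouped by role) in the 12 libraries (columns), coloured by log2(normalised read count + 1) minus the Control mean and limited to ±4. GSTM3, GPX8 and ME1 are blue throughout DTEP and LR, SLC7A11 turns red from DTEP on, and the column of DTEP replicate 3 resembles the LR columns.

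At the first transition, from Control to DTP, iron handling changed in both directions. HMOX1, the inducible haem oxygenase that releases iron from haem, rose most. It was read at 2.44, 3.37 and 2.7 in the Control libraries and at 27.9, 28.2 and 21.9 in the DTP libraries, with no overlap. The mean went from 2.84 ± 0.481 to 26.0 ± 3.57, 9.16-fold (log2 change 2.81, SE 0.70, adjusted p 0.00508 by limma).

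Both ferritin subunits, which store iron, were higher in DTP. FTL went from 385, 379.5 and 415 in Control to 933, 884 and 699 in DTP (log2 change 1.08, limma adjusted p 0.00169). FTH1 went from 616, 589 and 676 to 1239.8, 1098 and 926 (0.79, adjusted p 0.0346). The transferrin receptor TFRC, which imports iron, was lower instead. Its values fell from 1145, 1159.9 and 1060.4 to 402, 456 and 603, a 2.3-fold drop in the mean (log2 change -1.22, SE 0.25, limma adjusted p 0.00137).

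Among the thiol genes, the thioredoxin reductase TXNRD1 was 2.1-fold higher in DTP, at 326, 372 and 447 against 187, 183 and 175 (limma adjusted p 0.00149). The peroxiredoxins PRDX5 and PRDX6 were also higher (0.69 each), whereas PRDX3, the mitochondrial peroxiredoxin, was lower (-1.16). SOD2, the manganese superoxide dismutase of mitochondria, had the largest fall among the members, from 53.3, 51.9 and 48.1 to 12.4, 14.8 and 21.1 (log2 change -1.64, SE 0.19, limma adjusted p 3.47e-05). Control and DTP libraries did not overlap for any of these.

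The ferroptosis suppressor AIFM2 was higher in DTP, at 18.8, 16.5 and 15.7 against 9.8, 8.15 and 10.4 in Control (log2 change 0.79, limma adjusted p 0.00749). GPX4 was not distinguishable, with 155, 138 and 103 in DTP and 126, 123 and 134 in Control (log2 change 0.02, SE 0.27, adjusted p 0.951). The cystine importer SLC7A11 was low in both, at 5.93, 5.33 and 4.33 in Control and 4.28, 3.31 and 6.16 in DTP (adjusted p 0.809). The glutamate-cysteine ligase subunits GCLC and GCLM, which catalyse the first step of glutathione synthesis, did not pass either. GSR, which regenerates reduced glutathione, was lower (-0.54, adjusted p 0.0049).

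NFE2L2 itself did not pass (log2 change -0.24, SE 0.21, limma adjusted p 0.346), with 79.3, 84.9 and 102 in DTP and 107, 105 and 102 in Control. KEAP1 was higher, at 146, 134 and 119 against 81.9, 76.6 and 81.8 (0.72, adjusted p 0.000377), and was read at 112, 97.7 and 117 in DTEP. NQO1, a quinone reductase and classical NRF2 target, was read at 445, 438 and 409.9 in DTP and at 278, 272 and 275 in Control without overlap, yet missed the threshold in the fit over all 12 libraries (log2 change 0.65, SE 0.35, adjusted p 0.139). Fitted on the 6 libraries compared, NQO1 passed with an adjusted p of 7.5e-05, and without DTEP replicate 3 with 0.000421. The spread of NQO1 in DTEP, from 273 to 1006, enters the error shared by all groups in the 12-library fit.

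In all, 10 of the 37 tested members were higher in DTP and 5 lower, against a background of 25.2% higher and 28.8% lower over all tested genes. Of the members, 27% were higher and 13.5% lower. Their median log2 change was 0.05, beside -0.01 over all genes. The counts depended on the libraries fitted. With the 6 libraries compared, 18 were higher and 11 lower (background 35.4% and 37.6%), without DTEP replicate 3, 16 were higher (background 30.2%), and without DTP replicate 1, 6 were (background 19.9%). Over 4-fold, 1 member (HMOX1) was higher and 0 lower, where 1.01% and 3.9% of all genes were called. Besides the genes above, GSTM3 (1.32) and GPX2 (0.67) were higher and ME1 (-1.08) lower. Some of the higher calls did not survive leaving out a library. FTH1 was lost without any 1 Control library or without DTP replicate 1 or 2 (adjusted p 0.06 to 0.116). GSTM3 was lost without Control replicate 1 or 2 or DTP replicate 1 or 2 (0.0585 to 0.0664), GPX2 without Control replicate 1 or 2 or any DTP library (0.0532 to 0.117), and PRDX5 without DTP replicate 1 (0.0569). ME1, GSTM3 and GPX2 were also not called by edgeR or DESeq2 on the recovered reads.

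**Figure D2:**
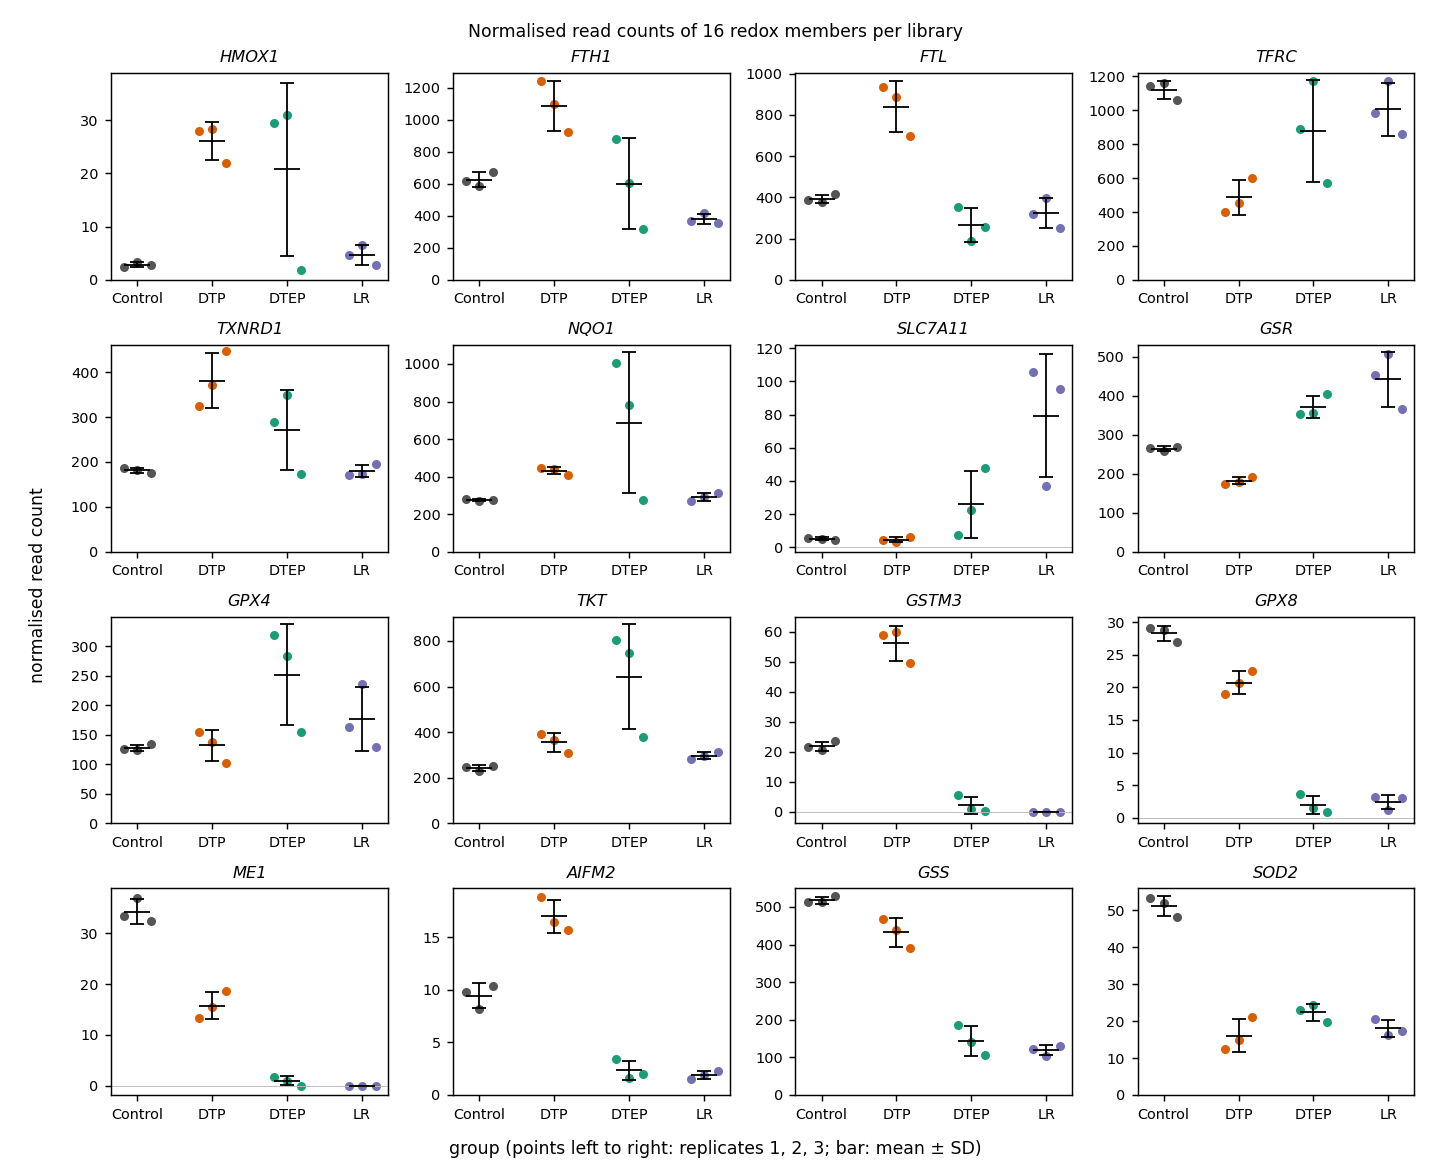
Normalised read counts of 16 members in each library, with points from left to right for replicates 1, 2 and 3 of Control, DTP, DTEP and LR, and bars for the mean ± SD. HMOX1 is high in DTP and in DTEP replicates 1 and 2 but 1.91 in replicate 3, SLC7A11 is highest in LR, and GSTM3 and ME1 are at 0 in each LR library.

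In the second transition, from DTP to DTEP, large losses appeared. The members that fell over 4-fold were a glutathione transferase, a malic enzyme, an endoplasmic reticulum peroxidase and the ferroptosis suppressor AIFM2. GSTM3, a mu-class glutathione transferase, went from 59.0, 60.1 and 49.5 in DTP to 5.5, 0.824 and 0.281 in DTEP (log2 change -4.52, SE 0.44, limma adjusted p 2.41e-06, and -5.22 without DTEP replicate 1). ME1, the cytosolic malic enzyme that yields NADPH, went from 13.3, 15.4 and 18.6 to 1.77, 0.947 and 0 (-3.25, SE 0.29, adjusted p 1.42e-06). For both, DTEP replicate 3 was the lowest library of its group.

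GPX8, a peroxidase of the endoplasmic reticulum, went from 18.9, 20.7 and 22.5 in DTP to 3.59, 1.52 and 0.898 in DTEP (log2 change -2.95, SE 0.31, limma adjusted p 4.64e-06). AIFM2 went from 18.8, 16.5 and 15.7 to 3.4, 1.65 and 1.96 (-2.46, SE 0.21, adjusted p 8.5e-07), a 7.28-fold drop. AIFM2, higher in DTP than in Control, was below Control in both later states (log2 change -1.68 in DTEP and -1.86 in LR). GSS, glutathione synthetase, fell 3.00-fold from 468, 438 and 390.2 to 185, 142 and 105 (-1.61, SE 0.18, adjusted p 7.91e-06).

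The ferritins returned from their DTP level. FTL fell to 352, 189 and 254 (log2 change -1.69, limma adjusted p 3.11e-05) and FTH1 to 883, 604 and 318 (-0.96, adjusted p 0.00965). PRDX5 (-1.40), GPX2 (-1.34) and PRDX6 (-0.60) were lower as well. TXNRD1, at 289, 349 and 174 in DTEP (-0.54), and KEAP1 (-0.29) were lower with limma adjusted p of 0.0405 and 0.048.

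The cystine importer SLC7A11 rose in the same transition, to 7.75, 22.6 and 47.5 from 4.28, 3.31 and 6.16 (log2 change 1.98, SE 0.53, limma adjusted p 0.00561). Every DTEP library was above every DTP library, with a wide spread among the DTEP libraries. The change was 1.40 without DTEP replicate 3 and 2.63 without replicate 1. GCLM, the modifier subunit of glutamate-cysteine ligase, went from 12.1, 11.3 and 15.7 to 32.3, 45.1 and 18.6 (1.16, adjusted p 0.0024), and GSR from 174, 179 and 192 to 353, 357 and 404 (1.02, adjusted p 2.7e-05). GCLC did not pass, at 51.3, 69.1 and 40.6 in DTEP against 59.0, 70.8 and 91.8.

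GPX4 was read at 318, 282 and 154 in DTEP and at 155, 138 and 103 in DTP (log2 change 0.88, SE 0.27, limma adjusted p 0.0126), with DTEP replicate 3 inside the DTP range. PRDX3 (1.46) and GPX1 (1.23, and 1.82 without DTEP replicate 3) were higher, and so were PRDX2 (0.71), SRXN1 (0.79), CAT (0.79) and SOD2 (0.48). PGD (0.69), TKT (0.79) and TALDO1 (0.88), enzymes of the pentose phosphate pathway, were higher as well. TFRC regained 0.81, to 889.9, 1172 and 568.

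HMOX1 showed the split of the DTEP group most plainly. It was read at 29.4 and 30.9 in DTEP replicates 1 and 2, above every DTP library, and at 1.91 in replicate 3, below every Control library. The change from DTP was -0.93 (SE 0.70, limma adjusted p 0.257) with all libraries, 0.21 without DTEP replicate 3 and -1.51 without replicate 2. NFE2L2 followed a like pattern at 140.3, 161 and 80.8 (0.46 from DTP, adjusted p 0.0667), and passed without DTEP replicate 3 (0.76). NQO1 did not pass from DTP with all libraries (0.47, limma adjusted p 0.246) but did without DTEP replicate 3 (1.04, 1.75e-05).

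Across the transition, 14 of 37 members were higher and 12 lower, against a background of 35.7% and 32.6%. Over 4-fold, 0 members were higher by limma (2 by edgeR and 2 by DESeq2, with backgrounds of 11.2% and 10.5%) and 4 lower, where 8.13% and 7.02% of all genes were called. The median was -0.14 for the members and 0.08 for all genes. Several calls rested on single libraries. GPX1 and GPX4 were lost without DTP replicate 3, DTEP replicate 1 or DTEP replicate 2 (adjusted p 0.0505 to 0.0571), PGD without DTEP replicate 1 or 2 (0.0549 to 0.0627), and TFRC without DTP replicate 1 or DTEP replicate 2 (0.0535 to 0.054). SOD2 was lost without any 1 Control library, DTP replicate 1 or 2 or DTEP replicate 1 or 2 (0.0583 to 0.171). TXNRD1 was lost without any 1 Control library, DTP replicate 2 or 3, DTEP replicate 3 or LR replicate 1 or 2 (0.0502 to 0.141), and KEAP1 without any 1 Control library, DTP or DTEP replicate 1 or 2, or LR replicate 1 or 3 (0.0537 to 0.167). Without DTEP replicate 2, 9 members were higher rather than 14 (background 32.9%). With only the 6 libraries compared, 11 were higher and 9 lower (background 31.4% and 29%).

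**Figure D3:**
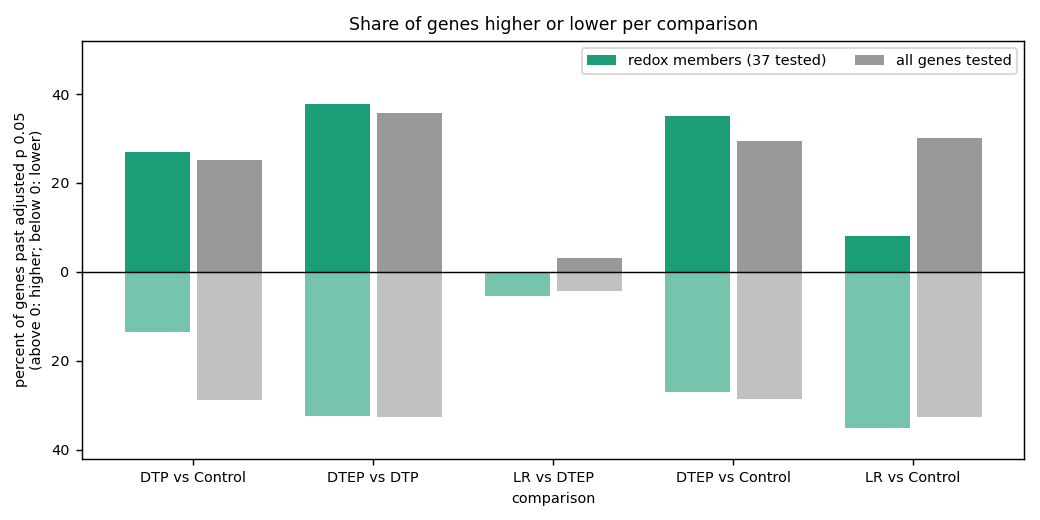
Percent of genes with an adjusted p below 0.05 (vertical axis, higher above 0 and lower below it) for the 37 tested members (green) and all 13794 tested genes (grey) in 5 comparisons. The bars are of like height from DTP to DTEP, and from Control to LR the members' bar for higher genes (8.11%) is shorter than that of all genes (30.2%). This share moved with the libraries fitted, and without DTEP replicate 3, 8 members were higher (background 33.8%).

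From DTEP to LR, 2 of 37 members were lower and 0 higher by limma, against a background of 4.31% and 3.04%. TKT, the transketolase of the pentose phosphate pathway, went from 806, 746 and 379.7 to 282, 296 and 313 (log2 change -1.04, SE 0.23, adjusted p 0.0278). SOD1, the cytosolic superoxide dismutase, went from 492, 395 and 234 to 205, 191 and 189.8 (-0.87, SE 0.21, adjusted p 0.036). The DTEP and LR libraries did not overlap for either gene. Over 4-fold, 0 members were called in each direction by limma (lower, 2 by edgeR and 4 by DESeq2, with backgrounds of 3.7% and 4.53%), where 0.225% of genes were higher and 0.457% lower. At an unadjusted p below 0.05, 1 member was higher and 15 lower (40.5% of 37), where 14.2% and 20.7% of all genes were.

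This comparison turned on DTEP replicate 3, which was singled out by its nearness to LR, so leaving it out favours a difference between DTEP and LR. Without it, 25 of the 37 members were lower and 1 higher, against a background of 28.1% lower and 19.3% higher, whereas 0 were lower without DTEP replicate 1 (background 1.09%) or replicate 2 (background 0.551%). TKT was lost without replicate 1 or 2 of Control, DTEP or LR, or without DTP replicate 2 (adjusted p 0.0506 to 0.121). SOD1 was lost without any 1 library other than DTP replicate 3 and DTEP replicate 3 (0.0561 to 0.135). On the recovered reads, edgeR called 8 members lower (background 8.56%) and DESeq2 14 (background 15.1%).

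Several members had LR values close to DTEP replicate 3 and far from DTEP replicates 1 and 2. NQO1 was read at 1006, 780.4 and 273 in DTEP and at 268, 292 and 313 in LR (log2 change -1.04, limma adjusted p 0.0733). Without DTEP replicate 3 the change was -1.61. PRDX1, an abundant cytosolic peroxiredoxin, was read at 1101, 814 and 294 in DTEP and at 339, 395 and 326 in LR (-0.86, adjusted p 0.112). Without DTEP replicate 3 it was -1.42. HMOX1 went to 4.65, 6.59 and 2.86 in LR (-1.36, adjusted p 0.182, -2.50 without DTEP replicate 3 and -0.78 without replicate 2). TXNRD1 went to 171, 174 and 195, near its Control values. Its change was -0.53 (adjusted p 0.107), and -0.82 without DTEP replicate 3. GPX1 (-1.89), GCLM (-0.93) and GPX4 (-0.81) passed in LR against DTEP without DTEP replicate 3 and did not with all libraries.

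SLC7A11 had the largest positive log2 change of the members in this comparison, without passing. LR libraries held 105, 36.8 and 95.5 against 7.75, 22.6 and 47.5 in DTEP (log2 change 1.76, SE 0.53, limma adjusted p 0.0586). DTEP replicate 3 and LR replicate 2 overlapped. Without DTEP replicate 3 the change was 2.34 and passed, and without replicate 1 it was 1.11. The 1 member higher over 4-fold in that setting was SLC7A11, and the 1 lower was HMOX1, where 0.667% and 1.55% of all genes were called.

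**Figure D4:**
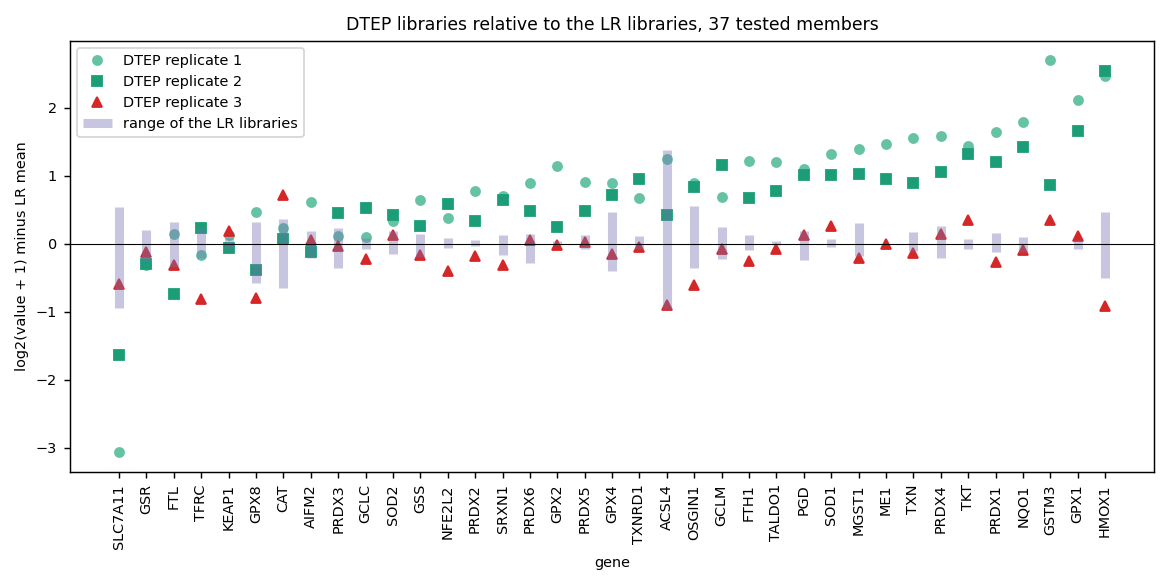
Each DTEP library relative to the LR mean for the 37 tested members, as a difference in log2(normalised read count + 1), with the range of the LR libraries as bars. The red triangles of DTEP replicate 3 lie nearer to 0 than the green symbols of replicates 1 and 2 for most genes.

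The end point was compared directly with the start. In LR against Control, 3 of 37 members were higher and 13 lower, against a background of 30.2% and 32.6%. As a share, 8.11% were higher and 35.1% lower. The spread within DTEP enters the error of this fit. It was larger for members (median SD 0.569 in log2) than for all genes (0.327), and its part in these shares was not tested. Over 4-fold, 1 was higher and 4 were lower, where 5.03% and 7.8% of genes were called. The median was -0.17, beside -0.03 for all genes.

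SLC7A11 rose 15.2-fold between these states, from 5.2 ± 0.808 to 79.2 ± 37.1 (log2 change 3.57, SE 0.53, limma adjusted p 1e-04). The lowest LR library, at 36.8, was above the highest Control library, at 5.93. SLC7A11 lies at chr4:138164097-138242349 and shares 9% of its exon bases with the antisense gene SLC7A11-AS1. GSR was higher at 452, 508 and 366 against 266, 258 and 269.6 (0.73, SE 0.13, adjusted p 0.000487), and KEAP1 at 101, 109 and 96.8 against 81.9, 76.6 and 81.8 (0.34, adjusted p 0.0242).

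The glutathione synthesis genes split in LR. GSS fell 4.35-fold, from 513, 512 and 528 in Control to 122, 104 and 131 (log2 change -2.12, SE 0.18, limma adjusted p 8.7e-07). GCLC, the catalytic subunit of glutamate-cysteine ligase, fell from 79.7, 77.4 and 76.3 to 45.2, 47.3 and 50.4 (-0.70, adjusted p 0.00759). GCLM did not pass, at 19.3, 16.6 and 23.5 against 13.9, 15.3 and 12.3 (0.48, adjusted p 0.145), although no LR library overlapped Control.

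ME1 and GSTM3 had 0 reads in each LR library. In the Control libraries, ME1 had stood at 33.5, 37.0 and 32.4 and GSTM3 at 21.6, 20.5 and 23.5. Set against the floor of 3 reads in a library, ME1 was at least 207-fold lower than its Control mean of 34.3 ± 2.43, and GSTM3 at least 132-fold lower than its Control mean of 21.9 ± 1.51. Both passed with limma adjusted p of 3.27e-08 and 2.69e-06. GPX8 fell from 29.0, 28.8 and 27.0 to 3.13, 1.22 and 2.96 (log2 change -3.14, adjusted p 3.08e-06). ME1 lies at chr6:83210402-83431051, GSTM3 at chr1:109733937-109741038 and GPX8 at chr5:55160171-55167297. GSTM3 belongs to a cluster of related mu-class genes, between which reads can be shared.

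AIFM2 was read at 1.48, 1.88 and 2.28 in LR (-1.86), below each Control library. Other members below Control in LR were SOD2 (-1.46), MGST1 (-1.32), PRDX5 (-1.19), GPX2 (-1.12), PRDX4 (-0.99), TXN (-0.94) and FTH1 (-0.72). GPX2, a low gene with 0.87 to 1.44 in Control, had 1 read in a single LR library. FTH1 was lost without any 1 library other than DTEP replicates 1 and 3 (adjusted p 0.0515 to 0.112), KEAP1 without any 1 Control library or LR replicate 1 or 2 (0.053 to 0.0849), and TXN without LR replicate 1 or 2 (0.0509 to 0.0553). Leaving out DTEP replicate 3 gave 8 members higher (background 33.8%), and leaving out DTEP replicate 1 gave 5 (background 32%).

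Members that did not pass between LR and Control included HMOX1 (log2 change 0.52, SE 0.70), NQO1 (0.08, SE 0.35), TXNRD1 (-0.02, SE 0.21), GPX4 (0.41, SE 0.27), NFE2L2 (0.03, SE 0.21) and TFRC. GPX4 was at 163, 236 and 129 in LR and NFE2L2 at 105, 114 and 103. TFRC was read at 983, 1170.1 and 861 in LR and at 1145, 1159.9 and 1060.4 in Control. With all libraries, each of these except NFE2L2 had passed in at least 1 of the earlier comparisons or in DTEP against Control.

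DTEP against Control gave 13 members higher and 10 lower of 37, against a background of 29.5% and 28.7%. This comparison shares its libraries with the others. Over 4-fold, 0 were higher by limma (2 by edgeR and 2 by DESeq2, with backgrounds of 7.31% and 6.78%) and 3 lower (ME1 -4.33, GPX8 -3.38, GSTM3 -3.21), where 4.43% and 6.2% of genes were called. The median was 0.26, and 0.02 for all genes. The higher members included SLC7A11 (1.81), TKT (1.33), TALDO1 (1.17), GCLM (1.07), GPX4 (0.91) and SOD1 (0.74). HMOX1 (1.89), NQO1 (1.12), SRXN1 (0.64) and PGD (0.70) were also higher. Without DTEP replicate 3, these log2 changes were 3.03, 1.68, 0.97 and 1.01, and HMOX1 was higher over 4-fold. Among others, NFE2L2 (0.52, limma adjusted p 0.00352) and TXNRD1 (0.80, 0.000432) passed in that setting and not with all libraries. Without replicate 2, HMOX1 was at 1.30. SLC7A11 had 1.22 without DTEP replicate 3 and 2.46 without replicate 1, and GSTM3 -3.90 without replicate 1.

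HMOX1 and SRXN1 lost the call against Control without any 1 Control library or without DTEP replicate 1 or 2 (adjusted p 0.0565 to 0.151). GPX4, NQO1 and PGD lost it without DTEP replicate 1 or 2 (0.0516 to 0.0706). Among the lower members, FTL was lost without any 1 Control library or DTEP replicate 2 or 3 (0.051 to 0.149), GCLC without any 1 Control library or DTEP replicate 1 or 3 (0.0529 to 0.0804), and GPX2 without Control replicate 1 or 3 or DTEP replicate 2 or 3 (0.0853 to 0.109). Without DTEP replicate 1 or 2, 8 members were higher rather than 13 (background 28.9% and 26.6%), and without replicate 3, 18 were (background 33.1%).

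ACSL4, which loads polyunsaturated fatty acids for membrane lipids and favours ferroptosis, was low and variable. It lay at 1.2, 0.87 and 0.885 in Control, 0.209, 0.691 and 0.633 in DTP, 5.41, 2.64 and 0.449 in DTEP, and 1.01, 0.387 and 6.06 in LR. It passed in none of the 5 comparisons with all libraries. Without DTEP replicate 3, ACSL4 was higher in DTEP than in DTP (log2 change 1.69, limma adjusted p 0.0127) and than in Control (1.29, 0.0496). OSGIN1, a stress-induced oxidoreductase gene under NRF2 control, also passed in none with all libraries, at 9.52, 8.26 and 8.52 in the Control libraries, 17.4, 14.1 and 10.8 in DTP, 11.3, 10.8 and 3.37 in DTEP, and 4.73, 8.74 and 4.17 in LR. Without DTEP replicate 3, OSGIN1 was higher in DTP than in Control (0.61, adjusted p 0.0431) and lower in LR than in DTEP (-0.87, 0.0202).

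The members with values too low to test were close to 0. AKR1B10, an aldo-keto reductase under NRF2 control, held 0.69 to 0.745 in the Control libraries and at most 0.247 elsewhere. AKR1C1, AKR1C2 and AKR1C3, near-identical neighbours whose reads can be shared, did not exceed 0.79 in any library. GPX3 and GSTP1 stayed at or below 0.14 and 0.47.

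Counting did not use strand by the stated settings, so a read in exon bases shared with another gene could not be assigned by strand. Overlaps were measured on GENCODE exons, which can differ from the RefSeq models used for counting. FTH1 shares 63.2% of its exon bases with BEST1 on the opposite strand, PRDX1 29.8% with MMACHC and NFE2L2 23.4% with HNRNPA3. OSGIN1 shares 8.2% with MLYCD on the same strand. The RefSeq annotation also names 27 pseudogenes after FTH1, 20 after FTL and 7 after TXN, so levels of these genes are less certain.

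A wider list of 179 genes of the same pathways was examined alongside, of which 178 were found and 140 tested. From Control to DTP, 29 (20.7%) were higher and 35 (25%) lower, where 25.2% and 28.8% of all genes were. From DTP to DTEP, 59 (42.1%) were higher and 41 (29.3%) lower, where 35.7% and 32.6% of all genes were. From DTEP to LR, 3 (2.14%) were higher and 9 (6.43%) lower, beside 3.04% and 4.31%. From Control to LR, 43 (30.7%) were higher and 48 (34.3%) lower, beside 30.2% and 32.6%. No difference of these shares from the background was tested. The genes described next were named by a rule that takes the largest changes of each list, and they do not stand for it.

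ME3, a mitochondrial malic enzyme, had 0 reads in each Control library, at most 0.115 in DTP, and 16.4, 13.6 and 28.5 in DTEP, followed by 25.9, 19.5 and 38.7 in LR. The cytosolic isoenzyme ME1 had 0 reads in each LR library.

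Like GSTM3, the transferases GSTM2 and GSTA4 had their highest values in DTP. GSTM2, a neighbour of GSTM3, went from 0.828, 0.87 and 1.07 in Control to 10.4, 8.14 and 7.83 in DTP (log2 change 2.34, SE 0.26, limma adjusted p 2.51e-05) and back to 1.72, 0.659 and 2.3 in DTEP. GSTA4, which conjugates the lipid peroxidation product hydroxynonenal, stood at 52.7, 52.8 and 48.3 in DTP and at 19.9, 19.4 and 21.8 in Control (1.29, adjusted p 0.0513). It fell to 7.7, 2.47 and 0.112 in DTEP (-4.02, SE 0.52, adjusted p 2.48e-05, with -3.25 without DTEP replicate 3 and -4.73 without replicate 1). GGT7, a member of the gamma-glutamyltransferase family, was at 96.5, 92.5 and 82.0 in DTP and at 24.4, 15.4 and 18.9 in DTEP (-2.17). OPLAH, the 5-oxoprolinase of the gamma-glutamyl cycle, rose from 0.887, 0.74 and 0.346 to 9.66, 19.2 and 25.3 (3.44, adjusted p 8.66e-07).

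Of 16 tested genes of thioredoxin and sulphoxide repair, 5 were higher and 5 lower from DTP to DTEP (31.2% each, beside 35.7% and 32.6% of all genes). MSRA, the reductase of the S form of methionine sulphoxide, had 0 reads in each of the Control and DTP libraries. It held 10.4, 13.5 and 11.7 in the DTEP libraries, with a mean 68.6-fold the largest floor in DTP, and 9.42, 16.2 and 15.6 in LR. MSRB3 went from 8.19, 10.9 and 13.1 to 1.82, 1.61 and 0.674 (log2 change -2.32, limma adjusted p 2.18e-06). Of 15 tested iron genes, 8 were higher and 2 lower from DTP to DTEP (53.3% and 13.3%, beside 35.7% and 32.6% of all genes). From Control to DTP, 2 were higher and 5 lower (13.3% and 33.3%, beside 25.2% and 28.8%). HFE, the hereditary haemochromatosis protein, had 0 reads in each of the Control and DTP libraries. It held 11.3, 19.7 and 21.2 in DTEP, with a mean 100.8-fold the largest floor in DTP. SLC39A8, a zinc and iron importer, fell from 24.3, 25.3 and 22.9 in Control to 2.71, 3.01 and 3.05 in DTP (-2.68, adjusted p 4.55e-07) and stood at 40.8, 33.0 and 27.1 in DTEP.

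Of 25 tested genes of lipid peroxidation and ferroptosis, 5 were higher, 8 lower and 12 did not pass from Control to DTP. These were 20% higher and 32% lower, beside 25.2% and 28.8% of all genes. From DTP to DTEP, 13 were higher and 10 lower (52% and 40%, beside 35.7% and 32.6%). SCD, the stearoyl-CoA desaturase that makes monounsaturated fatty acids, fell from 979, 1031 and 1005 in Control to 27.9, 27.8 and 32.4 in DTP, 34.3-fold (log2 change -5.05, SE 0.46, limma adjusted p 6.08e-06). It was at 1179, 855 and 288 in DTEP (4.45, adjusted p 3.97e-06, and 5.05 without DTEP replicate 3). ALOX15B, a lipoxygenase, went from 29.2, 31.4 and 27.9 in DTP to 0.287, 1.52 and 0.505 in DTEP (-4.17, adjusted p 2.63e-08).

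Of 10 tested oxidant sources and other scavengers, 5 were higher, 2 lower and 3 did not pass from DTP to DTEP. These were 50% higher and 20% lower, beside 35.7% and 32.6% of all genes. XDH, xanthine dehydrogenase, was at most 0.115 in DTP and at 6.55, 24.0 and 175 in DTEP (log2 change 4.96, SE 0.93, limma adjusted p 0.000473), then 337, 339.7 and 55.2 in LR. PXDN, the extracellular haem peroxidase peroxidasin, went from 59.2, 63.4 and 69.7 in DTP to 7.89, 3.75 and 0.449 in DTEP (-4.04, SE 0.47, adjusted p 1e-05). Within DTEP, replicate 3 had the highest XDH and the lowest PXDN, and without it the changes were 3.73 and -3.32. Without DTEP replicate 1 they were 6.00 and -4.63.

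**Figure D5:**
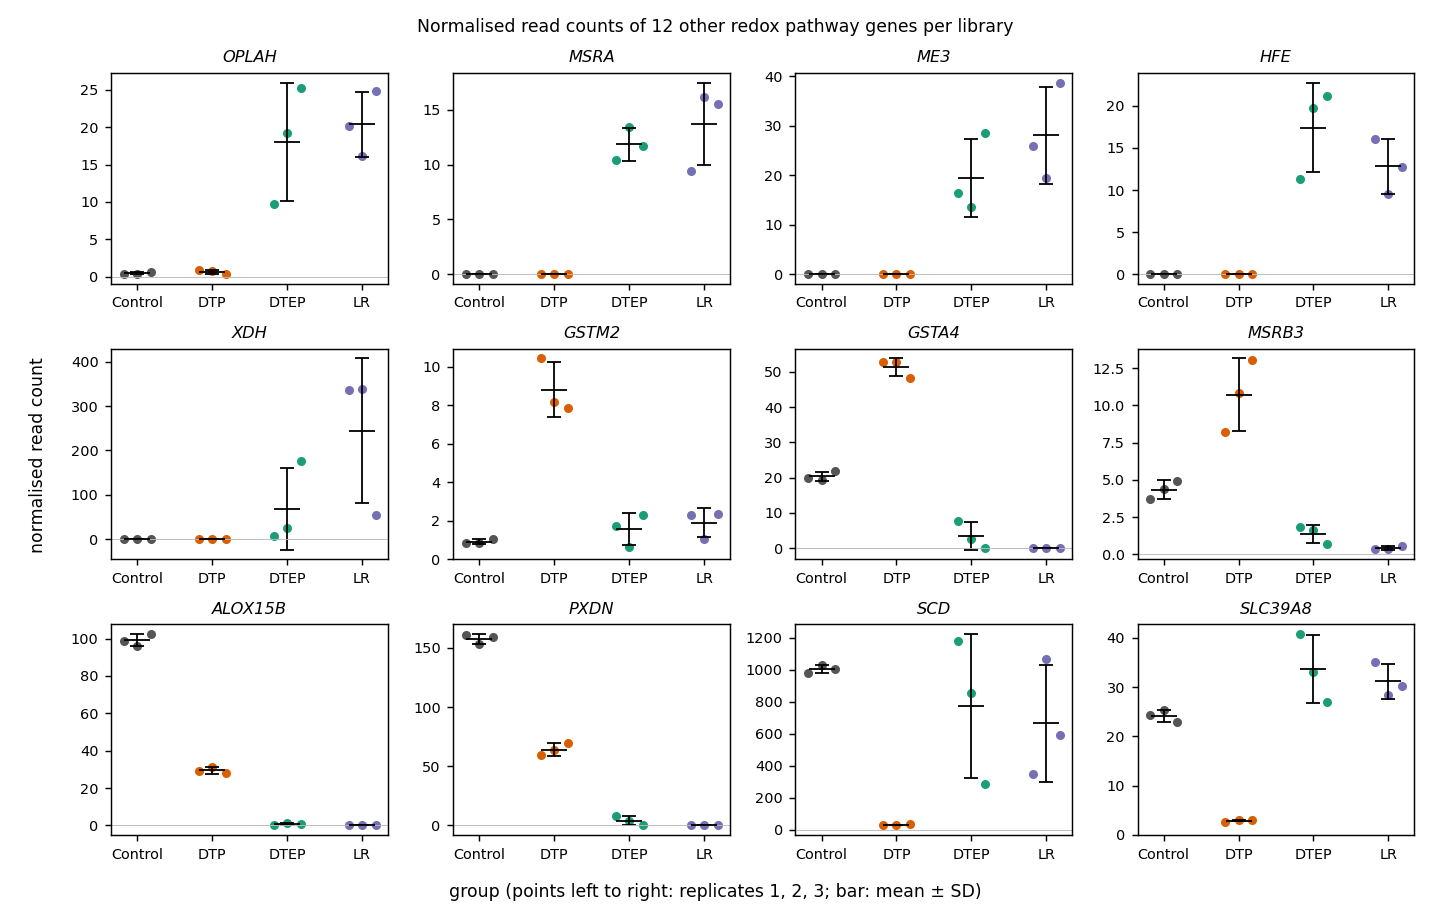
Normalised read counts of 12 other genes of the same pathways in each library, with points from left to right for replicates 1, 2 and 3 and bars for the mean ± SD. OPLAH, MSRA, ME3, HFE and XDH are high in DTEP and LR, GSTM2 is highest in DTP, GSTA4, MSRB3, ALOX15B and PXDN are near 0 in LR, and SCD and SLC39A8 dip in DTP.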

How the data were processed

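RNA of 12 BT474 libraries (4 states of 3) was made into stranded mRNA libraries. Per the study's methods, reads were aligned to hg38 and assigned to RefSeq gene models with Rsubread 2.0.0 at default settings, which do not use strand. The submitters' processing notes also name bcl2fastq and edgeR. The table the authors deposited holds a signal per gene and library, here called normalised read count. Divided by the step of each library, 100% of 199680 values above 0 came out whole (tolerance 1e-06), so the values are whole reads as CPM of a TMM-scaled library size. A single table column per library was used.

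In the present analysis, log2(value + 1) was fitted with limma 3.58.1 (R 4.3.3, trended variance, all 12 libraries sharing the error), on the 13794 genes that reached a value of 1 in 3 libraries or more, with Benjamini-Hochberg adjustment over all of them. The recovered reads were also tested with edgeR 4.0.16 and DESeq2 1.42.0. The limma, edgeR and DESeq2 fits were tried on simulated reads with large known changes in DTP and the same dispersion in every group. Moderate changes, unequal spread between groups and the alternatives named next were not simulated. Alternatives were other pseudocounts, filters, scalings and samples, leaving out each library, and a replicate block. The study calls its libraries technical replicates in one place and parallel plates in another, so p-values may measure technical spread alone. Replicates differed by more than sampling noise (smallest chi-square per gene 1.67). The genes and lists, including the wider list of 179 genes, were chosen with earlier results of these data known. Members given in full were 12 fixed by name (NFE2L2, KEAP1, GPX4, SLC7A11, AIFM2, ACSL4, GCLC, GCLM, NQO1, HMOX1, TXNRD1 and TFRC) and those changed over 4-fold. From each group of the wider list, the tested genes with the largest rise and the largest fall over 4-fold in the 3 successive transitions were named, among those whose groups did not overlap, except 1 that is not reported here. Other members were described by role. Promoter windows and gene coordinates are RefSeq's, on GRCh38.p14, and exon overlaps are from GENCODE.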

Additional observations from a re-analysis of the deposited data

How the results depend on the processing

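Of 110 changes of single genes examined under 23 alternatives, 71 kept their direction and their side of the threshold throughout, 27 passed and were lost under at least 1, and 11 gained a call under at least 1. The change of HMOX1 from DTP to DTEP reversed to 0.21 without DTEP replicate 3 and ranged from -1.51 to that value with 1 library left out. Of 470 counts of members, 53 moved by over 1.5 times, and the cause was not tested. With 1 library left out, the members higher numbered 6 to 16 in DTP against Control, 9 to 19 in DTEP against DTP, 0 to 1 in LR against DTEP, 8 to 18 in DTEP against Control and 2 to 8 in LR against Control. Members lower in LR against DTEP numbered 0 to 25. Over 4-fold, the members higher in DTEP against DTP, in LR against DTEP and in DTEP against Control, and those lower in LR against DTEP, each numbered 0 to 1.

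With only the 6 libraries compared, 18 members were higher and 11 lower in DTP against Control, 0 lower in LR against DTEP, 8 higher in DTEP against Control and 8 higher in LR against Control. Without a filter, 1 was lower in LR against DTEP. On recovered reads, 8 (edgeR) and 14 (DESeq2) were lower in LR against DTEP, 1 was higher there by DESeq2, and 5 were higher in LR against Control by edgeR. Over 4-fold, each tool called 2 higher in DTEP against DTP and 2 in DTEP against Control, and edgeR 2 and DESeq2 4 lower in LR against DTEP. A pseudocount of 0.1 gave 1 over 4-fold in each of these 3 cases, and 0.5 gave 1 higher in DTEP against DTP. With a limit of 1 in place of 2 for the absolute log2 change, 4 members were higher and 4 lower in DTP, 5 and 8 in DTEP against DTP, 6 and 6 in DTEP against Control, 1 lower in LR against DTEP and 9 lower in LR against Control. For settings without a share of all genes given above, these counts describe the setting only. They do not place the members relative to other genes.

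Under scaling by the median of ratios, the all-gene median shifted by -0.097 to 0.035 between comparisons. Correlations of deviations between libraries of the same number ran from -0.441 to 0.359, over 0.1 in 2 of 18 pairs. For different numbers they ran from -0.43 to 0.459, over 0.1 in 12 of 36. With 3 libraries in a group, deviations from the mean are not independent, so these values cannot decide whether the numbers pair the samples. With the replicate block, 13 members were higher and 11 lower in DTEP against DTP, KEAP1, SOD2 and TXNRD1 losing their calls there and OSGIN1 gaining one (-0.79, limma adjusted p 0.0404), and the other counts were as without it. Depth limits statements on genes near 0.124 to 0.173, the value of 3 reads, among them the 6 members not tested.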

Other observations

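GSTM3 and ME1 were 2 of the 48 genes with no read in LR, and MSRA and HFE 2 of the 14 genes with no read in Control and DTP. Of the luminal markers, CDH1 (E-cadherin) stood at 1094 to 1146 in Control and at 60.6 to 91.1 in LR, and GATA3, a luminal transcription factor, at 183 to 198 and 909.8 to 1572.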
